A study of Mus musculus with 8 samples.

Results

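The genes described here are 72 ion channel and cation pump genes, measured by bulk RNA-Seq in a mouse cardiac endothelial cell (MCEC) line with and without a CRISPR edit of *Hdac3*. They are the protein-coding genes of the deposited table whose symbols belong to the channel and pump families: potassium (*Kcn*, *Kctd*), calcium (*Cacn*), sodium (*Scn*, *Asic*, *Hcn*), TRP, chloride (*Clcn*, *Clic*, *Ano*, *Lrrc8*), mechanically activated (*Piezo*, *Tmem63*), purinergic and glutamate-gated (*P2rx*, *Gri*), intracellular calcium release and store entry (*Itpr*, *Ryr*, *Orai*, *Stim*), and the sodium and calcium pumps (*Atp1a*, *Atp1b*, *Atp2a*, *Atp2b*, *Atp2c*). The table lists 8278 genes, 7976 of them protein-coding, and a gene entered it only where the authors' own adjusted p-value was under 0.05. RefSeq (GRCm38.p6) has 278 protein-coding symbols of these families. Of the 72 genes, 70 were found there by symbol, and the other 208 RefSeq symbols were not analysed here. The symbol rule also takes 11 genes for their names (*Kctd* genes, *Kcnip3*, *Grina* and *Trpc4ap*), which are kept as a group of their own.

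The comparison was between 4 libraries of *Hdac3* KO MCECs and 4 of EV MCECs. The EV cells were transduced with an empty vector lentivirus and are labelled CTL for genotype. The *Hdac3* KO cells were transduced with a lentivirus carrying *Hdac3* sgRNA in the lentiCRISPR v2 vector, so cells of both groups went through lentiviral transduction. No source used here says whether the KO line is a clone or a pool, or whether the 4 libraries of a group came from separate cultures. The study's reporting statement says that its work in vitro typically used technical replicates, without naming these libraries. It also says that figure legends give numbers of biological replicates, and the legend for this RNA-Seq gives n = 4 per group. The p-values then measure only the spread between these libraries, which may be technical.

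Channels let ions cross a membrane down their electrochemical gradient, and pumps spend ATP to build that gradient. The Na+/K+-ATPase pairs a catalytic alpha subunit with a beta subunit that the enzyme needs to reach the plasma membrane. Calcium is loaded into the endoplasmic reticulum by the SERCA pumps (*Atp2a*), released by inositol trisphosphate receptors (*Itpr*), expelled from the cell by the PMCA pumps (*Atp2b*), and replenished when the store sensors STIM open the ORAI channels. In endothelial cells, calcium signals of this kind drive nitric oxide synthesis, potassium channels set the membrane potential, and PIEZO1 responds to shear stress.

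The promoter windows of 4 of the genes are shown because they belong to the lowest and highest log2 fold changes among genes whose higher group averaged 100 normalized counts or more and that have 1 RefSeq window, with its start site within 500 bases of the deposited 5′ end. They were chosen after the values were seen. Each runs from 250 bases before to 50 bases after the RefSeq start on GRCm38.p6, 5′ to 3′ on the gene's strand. *Atp1b1* (beta subunit of the sodium pump, log2 fold change -1.04) is at chr1:164458306-164458605, minus strand. *Grin2c* (a subunit of NMDA-type glutamate receptors, -1.03) is at chr11:115267194-115267493, minus strand. *Stim1* (calcium sensor of the endoplasmic reticulum, 0.45) is at chr7:102267569-102267868, plus strand. *Clic4* (a chloride intracellular channel protein, 0.64) is at chr4:135272711-135273010, minus strand. Capitals mark the GC box letters GGGCGG or, on the other strand, CCGCCC.
Atp1b1: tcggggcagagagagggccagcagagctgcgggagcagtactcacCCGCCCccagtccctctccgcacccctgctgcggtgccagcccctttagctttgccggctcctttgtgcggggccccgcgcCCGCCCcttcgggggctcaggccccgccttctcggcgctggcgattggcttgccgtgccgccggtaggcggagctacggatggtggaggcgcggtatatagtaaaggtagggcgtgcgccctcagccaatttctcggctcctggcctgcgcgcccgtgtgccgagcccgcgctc
Grin2c: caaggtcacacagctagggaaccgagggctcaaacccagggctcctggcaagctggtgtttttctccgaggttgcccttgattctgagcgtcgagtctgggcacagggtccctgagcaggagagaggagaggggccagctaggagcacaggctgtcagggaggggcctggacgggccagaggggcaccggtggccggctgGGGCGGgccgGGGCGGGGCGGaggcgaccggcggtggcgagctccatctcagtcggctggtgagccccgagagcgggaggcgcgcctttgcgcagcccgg
Stim1: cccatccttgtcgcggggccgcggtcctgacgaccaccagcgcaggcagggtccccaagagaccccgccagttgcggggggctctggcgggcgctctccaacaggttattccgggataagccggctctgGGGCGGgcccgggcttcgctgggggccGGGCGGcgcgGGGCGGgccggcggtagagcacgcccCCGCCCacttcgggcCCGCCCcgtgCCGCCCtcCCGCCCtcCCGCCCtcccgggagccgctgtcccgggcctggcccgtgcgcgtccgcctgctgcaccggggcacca
Clic4: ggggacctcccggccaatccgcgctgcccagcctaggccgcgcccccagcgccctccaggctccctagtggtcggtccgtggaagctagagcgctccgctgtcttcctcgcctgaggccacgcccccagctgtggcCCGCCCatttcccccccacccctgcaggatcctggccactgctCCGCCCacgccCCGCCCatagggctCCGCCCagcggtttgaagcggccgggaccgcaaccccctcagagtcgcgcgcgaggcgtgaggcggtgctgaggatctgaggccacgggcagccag

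The GC box letters occurred 2 times in the *Atp1b1* window, 3 times in *Grin2c* (where 2 matches share a base), 8 times in *Stim1* and 4 times in *Clic4*. The base composition of these windows was 71.0%, 70%, 78.7% and 73.3% G and C. Of all 32851 RefSeq windows of this length, 35.7% held the letters on either strand. These windows include genes outside the table and genes with several windows, so they are not a like background for the counts below. The share over listed genes with 1 window was not taken. Among the 38 channel and pump genes with 1 window, 32 held them: 16 of the 21 genes lower in *Hdac3* KO MCECs, 14 of the 15 higher and both of those that did not pass. The letters were thus present on both sides of the comparison. None of the 38 windows held the cAMP response element TGACGTCA (1.79% of all windows), 1 held the AP-1 letters TGACTCA or their complement (5.2%), 5 held the E-box CACGTG (7.15%) and 2 held TATAAA or its complement (13.6%).

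Library totals, recovered from count, length and FPKM, were 15775327 to 21262575 reads in EV and 19356714 to 22255684 in *Hdac3* KO, and the listed genes held 84.28% to 85.88% of them. *Hdac3* itself fell from 2058 ± 84.9 to 1513 ± 40.8 normalized counts (mean ± SD, n = 4 and 4; log2 fold change -0.45, SE 0.04), with no overlap between groups (two-sided exact permutation p = 0.0286, the smallest 4 against 4 libraries allow). Of 20 endothelial markers, 7 are listed. *Pecam1* was at 0.0184 FPKM or less, and *Kdr* and *Tek* were under 1 FPKM, in every EV library, whereas *Cd34* had a mean of 94.3 FPKM and *Eng* of 21.5. The summed endothelial markers were 121 to 123 FPKM in EV and 91.3 to 94.4 in *Hdac3* KO, with 6 lower and 1 higher. Those of fibroblasts (5 of 7 listed) were 1490 to 1540 and 1150 to 1170, those of smooth muscle and pericytes (4 of 7) 29.7 to 35.9 and 6.64 to 8.05, those of neurons (2 of 7) 9.97 to 11.5 and 7.81 to 8.97, and that of cardiomyocytes (1 of 9) 4.83 to 6.54 and 1.55 to 1.84. Within these lists *Col1a1* (log2 fold change 0.23), *Des* (1.62) and *Syt1* (0.97) rose. The immune marker *Cd68* (1 of 6 listed) rose from 5.36 to 5.89 FPKM in EV to 11.1 to 12.5 in *Hdac3* KO, and the epithelial *Krt8* and *Krt18* (2 of 4) from a sum of 1.5 to 2.06 to one of 3.56 to 4.81. The part of these markers in the results below was not tested. In bulk RNA, fewer cells of a type and less RNA per cell cannot be told apart.

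Channel and pump genes moved in both directions in *Hdac3* KO MCECs, and the largest single rise among genes with many reads was that of the ATP-gated channel gene *P2rx3*. By the quasi-likelihood test of edgeR, with p-values adjusted over all 8278 genes by Benjamini-Hochberg (used for every adjusted p here), 69 of the 72 passed at 0.01. That share is set by the table, of which 96.7% passed. By direction, 42 were lower (58.3%, against 49.6% of all listed genes) and 27 were higher (37.5%, against 47.1%). The share lower did not differ in the same way at each level. Under 1 FPKM it was 45.0%, against 60.0% of all listed genes at that level. It was 78.3% against 65.9% from 1 to 10 FPKM and 51.7% against 38.0% at 10 or more. Both shares of genes higher depend on the TMM scaling, since with library totals fewer of the 72 and fewer of all listed genes were higher. The median log2 fold change was -0.19, against 0.06 over all listed genes, and the median size was 0.59, against 0.40. Differences over 2-fold were found in 9 genes lower (12.5%, against 8.36%) and 9 higher (12.5%, against 4.43%). These sizes are not matched for level, since 27.8% of the 72 genes, against 10.1% of all listed genes, averaged under 1 FPKM. Within levels, the median size was 1.21 against 1.27 under 1 FPKM, 0.51 against 0.47 from 1 to 10 and 0.21 against 0.31 at 10 or more. The 4 EV and 4 *Hdac3* KO values did not overlap in 64 genes (88.9%, against 91.1%). Without the 11 genes taken for their names and the *Clic* genes, 37 were lower and 21 higher.

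**Figure D1:**
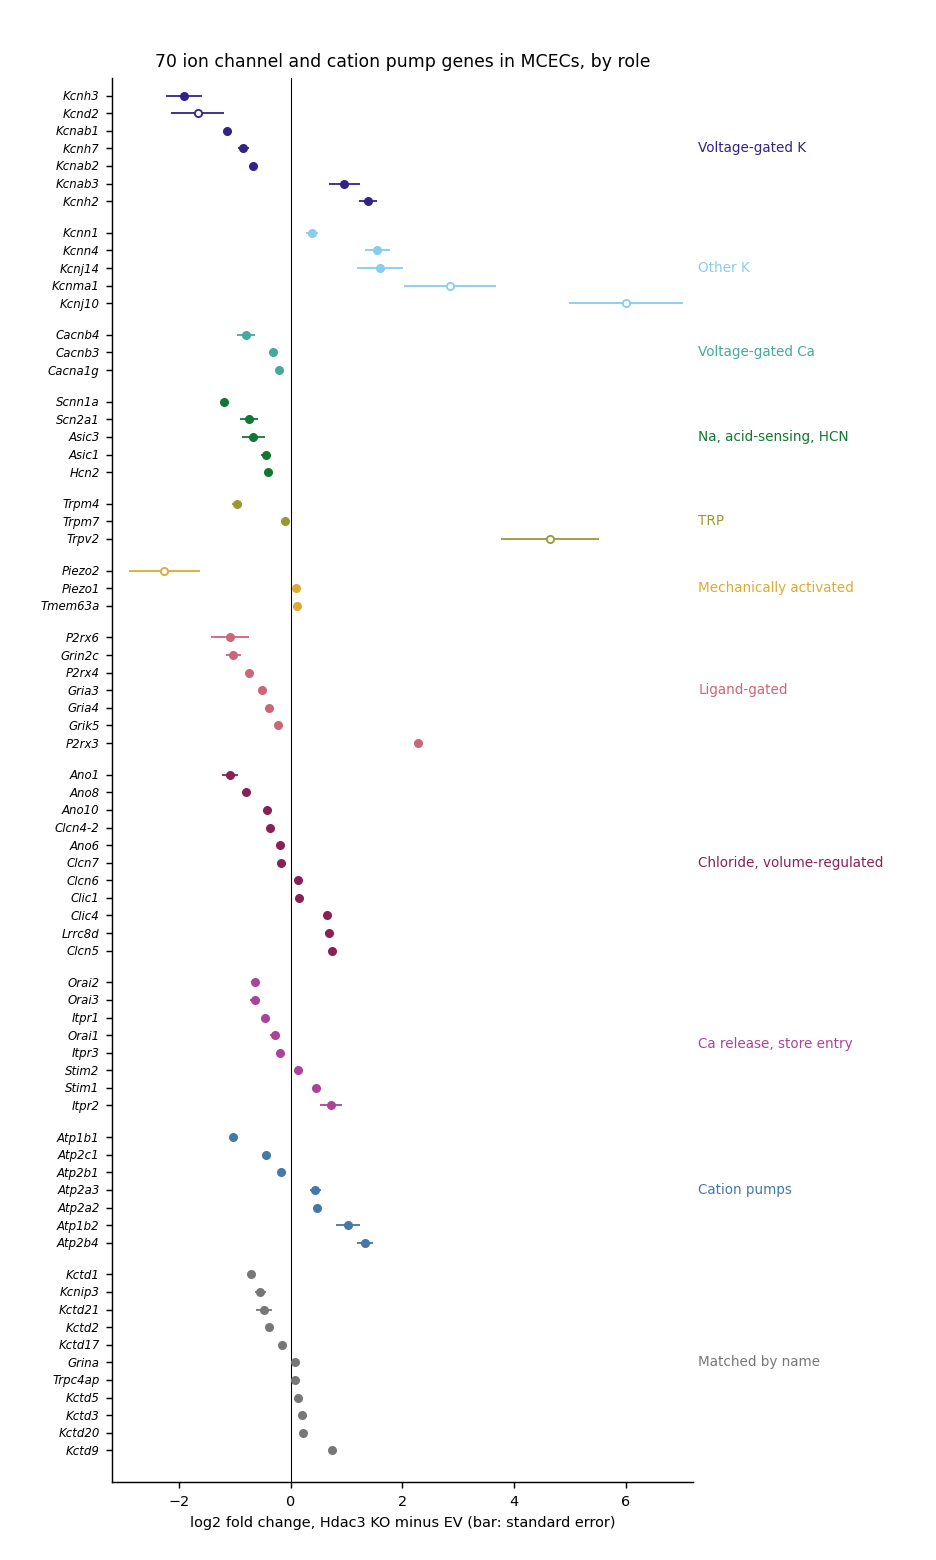
Log2 fold change of *Hdac3* KO over EV (horizontal axis, bars are standard errors, n = 4 and 4) for 70 of the 72 genes, grouped by role; open circles are the 5 genes with under 10 reads in every library of a group. All 5 sodium, acid-sensing and HCN genes lie left of 0 and all 5 inward rectifier and calcium-activated potassium channel genes lie right of it.

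The groups by role did not share a direction. All 5 sodium, acid-sensing and HCN genes (median log2 fold change -0.67) and all 3 voltage-gated calcium channel genes (-0.32) fell, as did 6 of 7 ligand-gated (-0.51) and 5 of 7 voltage-gated potassium channel genes (-0.85). All 5 inward rectifier and calcium-activated potassium channel genes rose (1.60). The 9 pumps were divided, 4 lower and 5 higher (0.44), as were the 8 calcium release and store entry genes, 5 lower and 3 higher (-0.24), and the 11 chloride and volume-regulated genes, 6 lower and 4 higher (-0.18). With 3 to 11 genes a group, these counts describe the groups, beside the 49.6% lower and 47.1% higher of all listed genes.

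Levels spanned a wide range per length. Among the highest mean FPKM in EV MCECs were those of *Atp1b1* (221), *Clic1* (183), *Grina* (166) and *Clic4* (123). In *Hdac3* KO MCECs, *Clic1* (186) and *Clic4* (176) were above *Atp1b1* (98.5). *Clic1* and *Clic4*, 183 ± 5.07 and 123 ± 3.20 FPKM in EV MCECs, were thus nearer to each other in *Hdac3* KO MCECs, at 186 ± 3.52 and 176 ± 2.09 (SD, n = 4). A mean under 1 FPKM over all libraries was found for 20 of the 72 genes (27.8%, against 10.1% of all listed genes). These 20, with 9 lower (45.0%, against 60.0% of all listed genes at that level) and 11 higher (55.0%, against 39.5%), had a median absolute log2 fold change of 1.21, near the 1.27 of all listed genes at that level. Of the 29 genes at 10 FPKM or more, 15 were lower (51.7%, against 38.0% of all listed genes at that level). Another 12 were higher (41.4%, against 57.9%). Their median absolute log2 fold change was 0.21, against 0.31 over all listed genes at that level. The 23 genes from 1 to 10 FPKM had 18 lower (78.3%, against 65.9% of all listed genes at that level) and 4 higher (17.4%, against 31.3%), with a median size of 0.51 against 0.47.

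**Figure D2:**
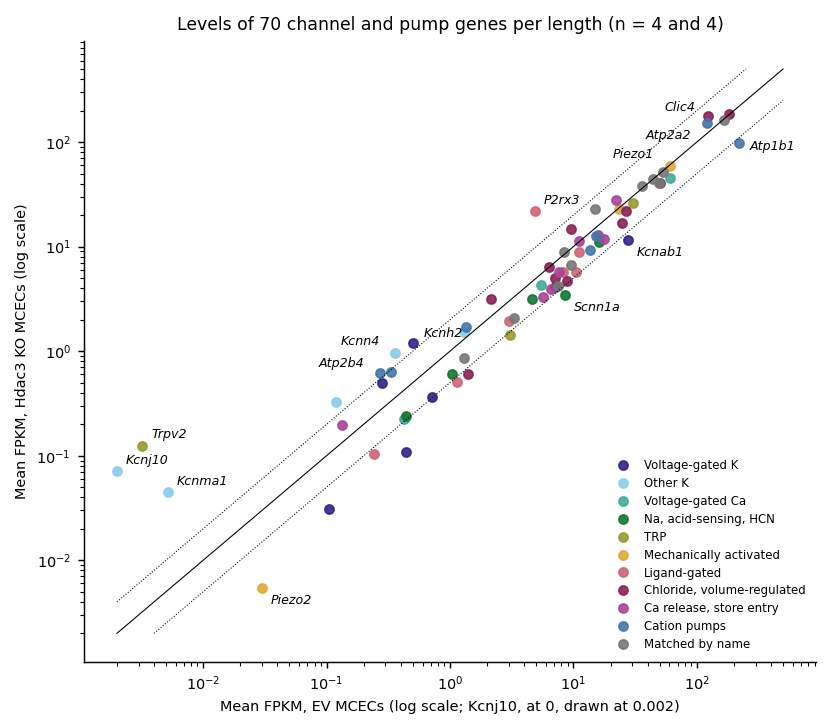
Mean FPKM in EV (horizontal) and *Hdac3* KO MCECs (vertical), both on log scales, for 70 of the 72 genes, coloured by role (n = 4 and 4); the solid line marks equal levels and the dotted lines a 2-fold difference. *P2rx3*, at 4.88 and 21.7 FPKM, is the gene over 2-fold higher with the highest level, and *Atp1b1*, at 221 and 98.5, the gene over 2-fold lower with the highest level.

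The beta subunits of the sodium pump moved in opposite directions. *Atp1b1*, the widely expressed form, had 10151, 9726, 10406 and 9870 normalized counts in EV and 4865, 4903, 5058 and 4641 in *Hdac3* KO. The groups were far apart, with *Atp1b1* 2.06-fold lower (log2 fold change -1.04, SE 0.03, adjusted p = 1.1e-26). Of its exonic bases, 18.7% overlap a gene on the opposite strand, and whether reads were counted by strand is not given in the sources used here. *Atp1b2*, a form known from the nervous system, was at 0.333 ± 0.0241 FPKM in EV and 0.628 ± 0.153 in *Hdac3* KO (2.03-fold higher, adjusted p = 3.3e-05), with no overlap. Even so, *Atp1b2* stayed far below *Atp1b1*, with an FPKM ratio of 0.00151 ± 0.000139 in EV and 0.00635 ± 0.00142 in *Hdac3* KO.

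Both listed SERCA pump genes rose and the Golgi pump gene fell, whereas the plasma membrane pump genes differed in direction. *Atp2a2*, the main SERCA pump outside fast muscle, had 9972, 10507, 9928 and 10162 normalized counts in EV and 13870, 14054, 13752 and 14216 in *Hdac3* KO. All KO libraries were above all EV libraries (log2 fold change 0.46, SE 0.03, adjusted p = 4.7e-18). *Atp2a3*, a SERCA gene of endothelial and blood cells, rose from 117 ± 9.55 to 159 ± 13.9 normalized counts (0.44, SE 0.10, adjusted p = 1.9e-04). The plasma membrane pump *Atp2b1* fell from 2055 ± 72.7 to 1810 ± 54.9 (-0.18, SE 0.03, adjusted p = 8.9e-06). *Atp2b4*, another pump of the plasma membrane, had 51.0, 74.4, 48.1 and 63.9 normalized counts in EV and 136, 160.1, 128 and 173 in *Hdac3* KO. The lowest KO value was above the highest EV value (log2 fold change 1.33, SE 0.14, adjusted p = 6.7e-11). Even so, *Atp2b4* at 0.625 FPKM in *Hdac3* KO stayed far below *Atp2b1* at 12.5 FPKM. *Atp2c1*, the Golgi calcium and manganese pump, had 1466, 1444, 1458 and 1444 normalized counts in EV and 1153, 1041, 1042 and 1060 in *Hdac3* KO (-0.44, SE 0.04, adjusted p = 1.8e-12). Its groups did not overlap, and 18.9% of its exonic bases overlap a gene on the opposite strand.

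**Figure D3:**
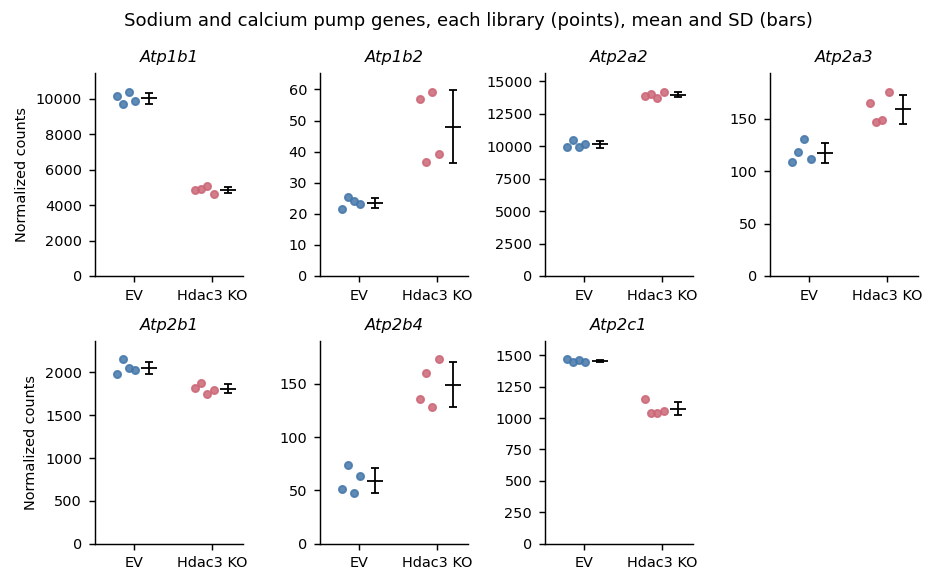
Normalized counts (vertical axes, from 0, a scale for each gene) of 7 of the 9 pump genes in each of the 4 EV and 4 *Hdac3* KO libraries (points), with mean and SD (bars). *Atp1b1* is lower and *Atp2a2* and *Atp2b4* are higher in all KO libraries.

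Calcium store sensors and store-operated channels moved in opposite directions. *Stim1* had 1488, 1498, 1463 and 1525 normalized counts in EV and 1935, 2095, 2020 and 2095 in *Hdac3* KO. It rose in all KO libraries (log2 fold change 0.45, SE 0.03, adjusted p = 5.7e-14). *Stim2*, the sensor of basal store calcium, was at 1060 ± 33.1 and 1163 ± 39.3 (0.13, SE 0.04, adjusted p = 0.00219), a difference that was 0.02 (adjusted p = 0.71) with library totals in place of TMM and did not pass without EV replicate 1 (0.12) or *Hdac3* KO replicate 3 (0.11). The 3 channel subunits all fell. *Orai1*, the main subunit of the store-operated channel, went from 268 ± 11.4 to 219 ± 21.1 normalized counts (-0.29, SE 0.08, adjusted p = 0.00107). *Orai2* had 462, 481, 489 and 478 normalized counts in EV and 299.9, 326, 290.0 and 305 in *Hdac3* KO (-0.65, SE 0.06, adjusted p = 1.1e-11). *Orai3* had 229, 237, 228 and 222 in EV and 148, 160.1, 124 and 148 in *Hdac3* KO (-0.65, SE 0.09, adjusted p = 4.3e-08). None of the 3 *Orai* genes had a KO library that reached the EV range.

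Of the inositol trisphosphate receptors, the abundant ones fell and the rare one rose. *Itpr1* had 3112, 3366, 3307 and 3229 normalized counts in EV and 2378, 2480, 2174 and 2365 in *Hdac3* KO (log2 fold change -0.47, SE 0.03, adjusted p = 1.3e-14). *Itpr3* was at 2679 ± 141 and 2344 ± 73.5 (-0.19, SE 0.03, adjusted p = 4.6e-06). *Itpr2* had 39.2, 26.7, 30.3 and 20.4 normalized counts in EV and 53.7, 48.5, 45.2 and 41.3 in *Hdac3* KO (0.72, SE 0.20, adjusted p = 0.00106). The groups of all 3 genes did not overlap. At 0.133 and 0.198 FPKM, *Itpr2* stayed far below *Itpr1* (17.6 and 11.7) and *Itpr3* (15.9 and 12.8). Without EV replicate 4, *Itpr2* had a log2 fold change of 0.56 and no longer passed (adjusted p = 0.012). No ryanodine receptor gene is among the 72.

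**Figure D4:**
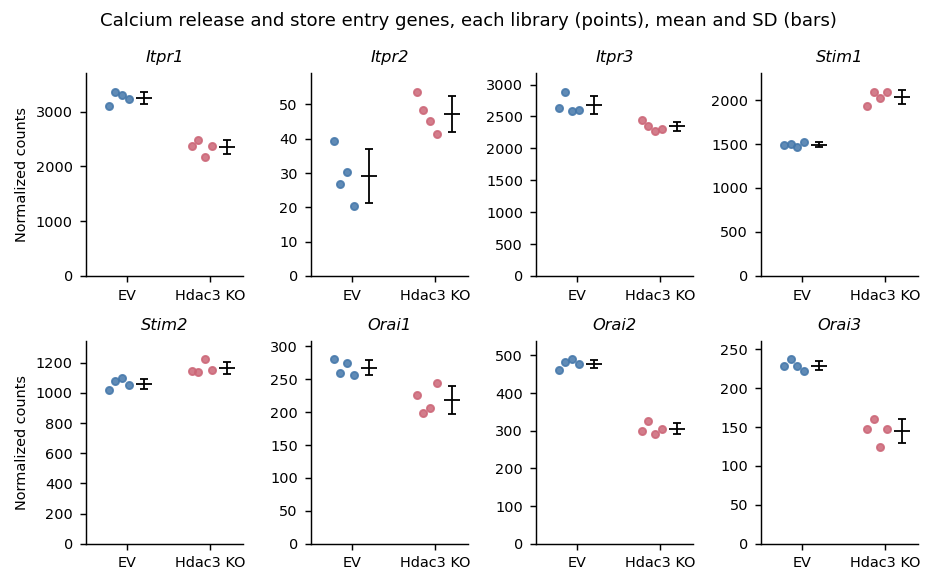
Normalized counts (vertical axes, from 0, a scale for each gene) of the calcium release and store entry genes in each of the 4 EV and 4 *Hdac3* KO libraries (points), with mean and SD (bars). The 3 *Orai* genes, *Itpr1* and *Itpr3* are lower and *Stim1*, *Stim2* and *Itpr2* higher in *Hdac3* KO.

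Voltage-gated potassium channel genes mostly fell. *Kcnab1*, a beta subunit that shapes the inactivation of Kv channels and the highest of this group, had 2268, 2258, 2356 and 2248 normalized counts in EV and 973, 1004, 1073 and 1079 in *Hdac3* KO. All KO libraries were well below the EV libraries (2.21-fold lower, log2 fold change -1.14, SE 0.04, adjusted p = 1.2e-24). *Kcnab2*, the next beta subunit in level, fell from 523 ± 40.1 to 327 ± 15.3 (-0.68, SE 0.06), and 2.24% of its exonic bases overlap another gene on the same strand. Within the ether-a-go-go family the directions differed. *Kcnh7* had 169.7, 179.9, 179.7 and 189 normalized counts in EV and 91.5, 101, 96.0 and 109.7 in *Hdac3* KO (-0.85, SE 0.10, adjusted p = 1.6e-09). *Kcnh2*, the gene of the hERG channel of cardiac repolarization, had 38.0, 53.3, 26.1 and 41.7 in EV and 108, 117, 84.7 and 105 in *Hdac3* KO (1.38, SE 0.16, adjusted p = 1.6e-09). *Kcnh7* fell and *Kcnh2* rose with no overlap, and *Kcnh2* was at 0.501 ± 0.140 FPKM in EV and 1.21 ± 0.160 in *Hdac3* KO. *Kcnh3* had its own fall from 29.6 ± 12.5 to 7.93 ± 1.83 normalized counts (-1.91, SE 0.32, adjusted p = 1.8e-06). The rare beta subunit gene *Kcnab3* was at 13.5 ± 5.56 and 25.5 ± 3.66 normalized counts with overlapping groups (0.96, SE 0.27, adjusted p = 0.0014), and at 0.78 without EV replicate 4 it did not pass. *Kcnd2*, an A-type channel gene, was near the floor, with 39 reads over the EV libraries and 13 over the KO libraries. Relative to library size this was 3.27-fold lower (95% exact interval 1.71 to 6.68, counting error only). *Hdac3* KO replicate 1 held 7 of the 13 KO reads, and without that library *Kcnd2* was 5.47-fold lower.

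The other potassium channel genes were low in EV and rose. *Kcnn4*, the intermediate-conductance calcium-activated channel of endothelial hyperpolarization, had 13.1, 12.2, 16.7 and 12.4 normalized counts in EV and 43.1, 38.4, 36.7 and 42.2 in *Hdac3* KO. The groups were well apart (2.93-fold higher, log2 fold change 1.55, SE 0.23, adjusted p = 1.4e-07), at 0.356 ± 0.0560 and 0.967 ± 0.0729 FPKM. *Kcnn1*, a small-conductance relative, rose from 97.7 ± 5.95 to 127 ± 13.5 (0.38, SE 0.11, adjusted p = 0.00221), which did not pass without *Hdac3* KO replicate 1 (0.32), with library totals in place of TMM (0.26, adjusted p = 0.0317) or with upper-quartile factors (0.31, adjusted p = 0.0106), each leaving 4 of the 5 genes higher. *Kcnma1*, the large-conductance calcium-activated channel gene, had 2 reads over the EV libraries and 19 over the KO libraries, a ratio of 8.72 relative to library size (95% exact interval 2.10 to 77.2). *Kcnj10*, an inward rectifier best known from glia, had no read in any EV library and 5 to 12 reads in each KO library. Against a floor of 3 reads over the EV group, its 33 reads made it at least 10.1-fold higher. *Kcnj14* was at 5.97 ± 4.99 and 17.8 ± 7.72 normalized counts, with overlapping groups (1.60, SE 0.41, adjusted p = 5.7e-04). EV replicate 2 held 12 reads of *Kcnj14*, and without it the log2 fold change was 2.34 (adjusted p = 2.3e-05). After normalization, *Kcnj10* at 0.0711 FPKM and *Kcnma1* at 0.0447 FPKM remained among the 4 lowest genes in *Hdac3* KO MCECs.

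Calcium and sodium channel genes of excitable cells and of epithelia fell together. *Scnn1a*, the alpha subunit of the epithelial sodium channel, had 604, 569.7, 515 and 545 normalized counts in EV and 284, 259, 220.3 and 219 in *Hdac3* KO. The highest KO library was far below the lowest EV library (2.27-fold lower, log2 fold change -1.19, SE 0.07, adjusted p = 1.1e-16). *Asic1*, an acid-sensing channel gene, fell from 326 ± 22.1 to 239.6 ± 19.8 (-0.45, SE 0.08, adjusted p = 2.1e-06). *Asic3* was at 37.7 ± 5.75 and 23.7 ± 5.87 with overlapping groups (-0.67, SE 0.21, adjusted p = 0.00383). *Asic3* did not pass with DESeq2 (-0.66, adjusted p = 0.0118) or without EV replicate 1, EV replicate 4 or *Hdac3* KO replicate 4 (-0.63 to -0.51), which leaves 4 of the 5 genes lower. *Hcn2*, a hyperpolarization-activated cation channel gene, fell from 963 ± 56.4 to 724 ± 31.8 (-0.41, SE 0.05) and *Scn2a1* from 73.2 ± 11.9 to 43.5 ± 6.01 (-0.75, SE 0.16). Without EV replicate 3, *Scn2a1* was at -0.62. Of the voltage-gated calcium channels, the T-type subunit *Cacna1g* had 859, 865, 824 and 867 normalized counts in EV and 712, 792, 693 and 728 in *Hdac3* KO (-0.22, SE 0.05, adjusted p = 4.8e-05). The groups were separate by a narrow margin. The beta subunits *Cacnb3* (3226 ± 127 to 2591 ± 78.8, log2 fold change -0.32) and *Cacnb4* (66.0 ± 8.23 to 37.9 ± 2.85, -0.80) also fell. Of the exonic bases of *Cacnb4*, 16.0% overlap a gene on the opposite strand.

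Among TRP channel genes, *Trpm4* fell and *Trpv2* was detected almost only in *Hdac3* KO MCECs. *Trpm4*, a calcium-activated channel for monovalent cations, had 230.2, 258, 264 and 218 normalized counts in EV and 121, 115, 140.3 and 116 in *Hdac3* KO. The groups were well apart (1.96-fold lower, log2 fold change -0.97, SE 0.09, adjusted p = 2.2e-11). *Trpm7*, a channel with a kinase domain that carries magnesium, was at 4062 ± 137 and 3769 ± 89.6 with overlapping groups (-0.11, SE 0.03, adjusted p = 0.00104). *Trpv2* had 1 read over the 4 EV libraries and 40 over the KO libraries, where single libraries held 1 to 15. The ratio relative to library size was 36.7 (95% exact interval 6.22 to 1490), and without EV replicate 4, which held that 1 read, *Trpv2* was at least 8.63-fold higher against a floor of 3 reads over the EV group. It was at 0.125 ± 0.0812 FPKM in *Hdac3* KO. The KO libraries thus differed among themselves, with 1.05, 13.7, 8.47 and 14.1 normalized counts.

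The mechanically activated channel genes with many reads hardly differed. *Piezo1*, the shear stress sensor of endothelium, had 8740, 10115, 9299 and 9251 normalized counts in EV and 10211, 10251, 9296 and 10084 in *Hdac3* KO. The groups overlapped (log2 fold change 0.09, SE 0.03, adjusted p = 0.00991), and 24.6% of its exonic bases overlap a gene on the opposite strand. Its sign depended on the scaling, since it was -0.03 (adjusted p = 0.45) with library totals in place of TMM and 0.02 (adjusted p = 0.46) with upper-quartile factors, and it no longer passed in 6 of the 8 fits that leave out 1 library (0.06 to 0.09). *Tmem63a*, an osmosensitive channel gene, was at 1439 ± 19.9 and 1554 ± 34.1 normalized counts with no overlap (0.11, adjusted p = 0.00291), and at -0.01 (adjusted p = 0.88) with library totals. *Piezo2*, the touch channel of sensory neurons, was near the floor, with 24 reads over the EV libraries and 5 over the KO libraries. Relative to library size it was 5.23-fold lower (95% exact interval 1.96 to 17.6), and without EV replicate 4 it no longer passed (adjusted p = 0.011).

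Of the listed ATP-gated channel genes, *P2rx3* and *P2rx4* exchanged their order. Other *P2rx* genes are not in the table, so the order within the whole family is not known. *P2rx3*, a subunit known from sensory neurons, had 144, 192, 179.7 and 149 normalized counts in EV and 816, 783, 803 and 803 in *Hdac3* KO. It rose 4.83-fold (log2 fold change 2.27, SE 0.07, adjusted p = 1.5e-25), with the lowest KO library far above the highest EV library. *P2rx4*, the main ATP-gated channel of endothelial cells, had 503, 453, 589 and 533 normalized counts in EV and 319.9, 308, 285 and 330.0 in *Hdac3* KO. It fell in all KO libraries (1.68-fold lower, -0.75, SE 0.07, adjusted p = 8.6e-12). In EV MCECs *P2rx4* was at 10.4 ± 1.15 FPKM and *P2rx3* at 4.88 ± 0.685, and in *Hdac3* KO MCECs they were at 5.73 ± 0.349 and 21.7 ± 0.368. The rare *P2rx6* fell from 15.3 ± 2.95 to 7.08 ± 2.75 normalized counts (-1.09, SE 0.34, adjusted p = 0.00366), did not pass with DESeq2 (adjusted p = 0.0125) or without EV replicate 3, EV replicate 4 or *Hdac3* KO replicate 1 (-1.03 to -0.86), and 13.9% of its exonic bases overlap a gene on the opposite strand.

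All 4 listed glutamate receptor genes fell. *Grin2c* had 126, 106, 93.0 and 97.6 normalized counts in EV and 44.2, 47.6, 49.9 and 62.8 in *Hdac3* KO. The groups did not overlap (2.04-fold lower, log2 fold change -1.03, SE 0.14, adjusted p = 5.5e-08). The AMPA receptor subunits *Gria3* (294 ± 12.6 to 206 ± 7.54, log2 fold change -0.51) and *Gria4* (838 ± 37.5 to 640.5 ± 20.4, -0.39) and the kainate receptor subunit *Grik5* (809 ± 52.3 to 690.4 ± 30.4, -0.23) fell by less, each with no overlap.

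The calcium-activated chloride channel gene *Ano1* and the intracellular chloride channel genes moved in opposite directions. *Ano1* had 125, 129, 103 and 130.4 normalized counts in EV and 57.9, 68.6, 60.3 and 41.3 in *Hdac3* KO. All KO libraries were lower (2.14-fold, log2 fold change -1.09, SE 0.14, adjusted p = 8.2e-09). Its relative *Ano8* had 618, 607, 655 and 633 in EV and 358, 355, 364 and 353 in *Hdac3* KO (-0.81, SE 0.05, adjusted p = 1.3e-15). *Ano6*, a phospholipid scramblase and channel and the highest of the family at 50.5 and 40.9 FPKM, fell by 0.19 on the log2 scale (SE 0.03, adjusted p = 2.1e-07), and *Ano10* by 0.43 (SE 0.04). All 4 *Ano* genes were therefore lower, each with no overlap between groups. *Clic4* had 9487, 9868, 9326 and 9315 normalized counts in EV and 14863, 14749, 14541 and 14983 in *Hdac3* KO. It rose 1.56-fold (log2 fold change 0.64, SE 0.03, adjusted p = 5.3e-22), with every KO library far above the EV range. *Clic1* rose from 5029 ± 135 to 5562 ± 105 (0.14, SE 0.03, adjusted p = 9.9e-06), which was 0.03 (adjusted p = 0.34) with library totals in place of TMM.

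The CLC family of chloride channels and chloride-proton exchangers was divided. *Clcn5*, an endosomal exchanger, had 1523, 1544, 1508 and 1489 normalized counts in EV and 2456, 2611, 2489 and 2588 in *Hdac3* KO. Every KO library was higher (1.67-fold, log2 fold change 0.74, SE 0.03, adjusted p = 9.2e-21). *Clcn7*, the lysosomal exchanger, fell from 2043 ± 42.5 to 1806 ± 35.0 (-0.18, SE 0.03), and *Clcn4-2*, with 11.5% of its exonic bases over a gene on the opposite strand, from 609 ± 25.2 to 468 ± 24.3 (-0.38, SE 0.05). *Clcn6*, of late endosomes, was at 622 ± 35.7 and 678 ± 58.3 and did not pass (log2 fold change 0.13, adjusted p = 0.0317). *Lrrc8d*, a subunit of the volume-regulated anion channel, had 198, 249, 237 and 239 normalized counts in EV and 389, 338, 370.0 and 386 in *Hdac3* KO. It rose with no overlap (0.68, SE 0.07, adjusted p = 4.2e-10).

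Of the 11 genes taken for their names, 5 were lower and 4 higher, against 49.6% and 47.1% of all listed genes, with log2 fold changes from -0.71 to 0.74 and a median size of 0.21, against 0.40 over all listed genes. *Kctd9*, of the tetramerization domain family that serves as adaptors of ubiquitin ligases, had 908, 908, 886 and 851 normalized counts in EV and 1389, 1504, 1496 and 1520 in *Hdac3* KO. It rose with wide separation (log2 fold change 0.74, SE 0.04, adjusted p = 4.2e-18). *Kctd1*, of the same family, had 476, 509, 450.3 and 499 in EV and 275, 272, 307 and 332 in *Hdac3* KO (-0.71, SE 0.07, adjusted p = 1.4e-11). *Kctd1* thus fell in all KO libraries. *Grina*, an abundant membrane protein of the TMBIM family at 166 and 161 FPKM, did not pass (log2 fold change 0.07, adjusted p = 0.0105), nor did *Trpc4ap* (0.07, adjusted p = 0.0151). With library totals in place of TMM, *Grina* was at -0.04. The remaining 7 genes (*Kctd2*, *Kctd3*, *Kctd5*, *Kctd17*, *Kctd20*, *Kctd21* and *Kcnip3*) ranged from -0.55 for *Kcnip3* to 0.21 for *Kctd20*. *Kcnip3* encodes a calcium-binding protein that also binds Kv4 channels as an auxiliary subunit, so it could be counted with the voltage-gated potassium channel genes. The fall of *Kctd21* (-0.48) no longer passed without EV replicate 2 (-0.40) or *Hdac3* KO replicate 4 (-0.43).

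Ratios within a library do not depend on how libraries are scaled to each other, and they show the shifts between partner genes directly. *Atp2a2* over the summed *Itpr* FPKM went from 3.58 ± 0.0708 in EV to 6.19 ± 0.218 in *Hdac3* KO (SD, n = 4). The summed *Stim* over the summed *Orai* FPKM went from 1.67 ± 0.0445 to 3.03 ± 0.200. Neither of these ratios overlapped between groups. *Atp2b4* over *Atp2b1* was 0.0175 ± 0.00311 in EV and 0.0501 ± 0.00664 in *Hdac3* KO, still a small part of the plasma membrane pump transcripts. Among the listed *P2rx* genes, the *P2rx3* share went from 31.5% ± 4.35 to 78.8% ± 0.996 of FPKM and the *P2rx4* share from 66.9% ± 4.10 to 20.8% ± 1.0. *Clcn5* went from 19.3% ± 0.226 to 30.9% ± 0.912 of the listed *Clcn* genes, and *Kcnn4* from 21.6% ± 2.16 to 38.6% ± 2.42 of the listed *Kcnn* genes. *Kcnab1* made up 79.0% ± 1.29 of *Kcnab* FPKM in EV and 71.6% ± 1.58 in *Hdac3* KO. Within the *Orai* genes, the *Orai1* share went from 38.3% ± 1.20 to 44.3% ± 3.04 with no overlap, whereas the shares of *Orai2* (33.2% ± 0.926 and 30.1% ± 1.65) and *Orai3* (28.6% ± 0.686 and 25.7% ± 1.89) overlapped between groups.

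**Figure D5:**
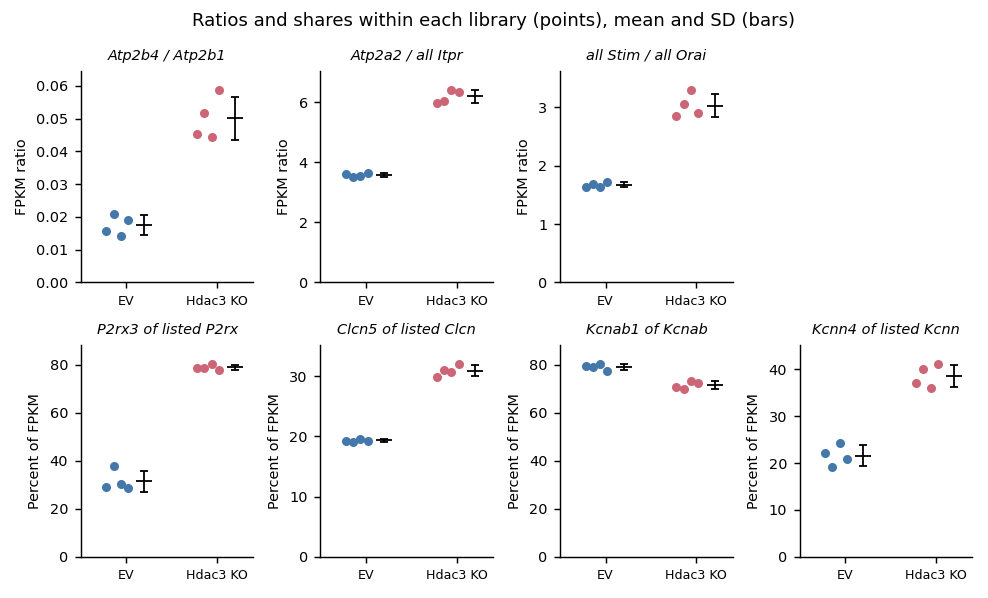
FPKM ratios of partner genes (upper row) and percent of a family's listed FPKM (lower row) in each EV and *Hdac3* KO library (points), with mean and SD (bars, n = 4 and 4); vertical axes start at 0. The groups are separate in all 7 panels, and the *P2rx3* share has its lowest KO library at 77.8% and its highest EV library at 37.9%.

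Genes of the set that lie close together on a chromosome did not always move together. On mm10, 12 pairs were next to each other within 1 Mb, of which 7 had the same direction and 5 opposite directions. *Kcnh2* (chr5:24319589-24351604, log2 fold change 1.38) and *Asic3* (chr5:24413451-24417834, -0.67) were 61.8 kb apart and opposite in direction. *Cacnb3*, *Kcnh3* and *Asic1*, in this order on chromosome 15, all fell. A further row with a matching symbol, the antisense transcript *Kcnq1ot1* (chr7:143212155-143296549), is not protein-coding and was at 29.1 ± 7.06 and 53.2 ± 8.26 normalized counts (0.90, SE 0.20, adjusted p = 8.7e-05).

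Other genes of ion transport and calcium signalling were looked up from 4 lists of 137 genes, of which 64 are in the table. Of these, 37 were lower and 27 higher, with a median log2 fold change of -0.24, against 49.6% lower and 47.1% higher among all listed genes. With library totals in place of TMM, 13 were higher. Fewer of all listed genes were higher with that scaling too, so 47.1% is not the share to set beside the 13. The drop from 27 to 13 was still larger, as a proportion, than the drop over all listed genes. With library totals, the share higher was thus lower among the related genes than among all listed genes. By list, pump regulators, exchangers and organelle calcium genes had 14 lower and 8 higher, calcium sensors, calcineurin and NFAT 10 and 7, cation-chloride cotransport and WNK kinases 5 and 6, and gap junctions and other channel families 8 and 6. The lowest was *Tmem178*, a regulator of store calcium and STIM1, which fell from 112 ± 16.5 to 5.09 ± 2.30 normalized counts (log2 fold change -4.44, SE 0.24, adjusted p = 2.8e-18). *Gabra3*, a GABA-gated chloride channel subunit, fell from 159 ± 22.8 to 62.9 ± 7.17 (-1.33, SE 0.12), and *Slc8a1*, the sodium-calcium exchanger of the plasma membrane, from 125 ± 9.44 to 50.4 ± 13.3 (-1.29, SE 0.14). These 3 had no overlap between groups. Among the highest with many reads were *Clns1a* (728 ± 22.0 to 979 ± 63.5, log2 fold change 0.43) and the kinase *Stk39* (1714 ± 19.1 to 2255 ± 72.6, 0.39), which phosphorylates cation-chloride cotransporters.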

How the data were processed

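Bulk RNA-Seq of 4 EV and 4 *Hdac3* KO MCEC libraries was analysed. Group and replicate number came from the sample titles and the matching column names. Per the study's methods, reads were aligned to mm10 with tophat2 and bowtie2; the submitters' processing notes list CASAVA and DESeq 1.6.3. The program that assigned reads to genes, its annotation and its use of strand are not given in the sources used here. The counts were deposited as whole reads per gene and library, without normalization. For FPKM, the authors divided each count by gene length and by the total of its library. The deposited p-value column, adjusted by the authors, was read only to find that all 8278 genes are under 0.05. The authors' group means and log2 fold changes were not used, and the tables of lower and higher genes were read only to check that they hold the same genes.

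Library totals were recovered from count, length and FPKM. Library sizes were these totals times TMM factors (0.9574 to 0.9615 in *Hdac3* KO, 1.0381 to 1.0457 in EV). Normalized counts are counts divided by relative library size. All 8278 genes were fitted without a filter by edgeR 4.0.16 (quasi-likelihood test, R 4.3.3, limma 3.58.1), with Benjamini-Hochberg adjustment and a threshold of 0.01. The common biological coefficient of variation was 2.82%. Because the table was selected on the same libraries, the share of genes that pass is fixed by it, and counts describe the listed genes. Replicate pairs differed by more than sampling noise (chi-square per degree of freedom 1.8 to 3.67), so each library was counted once. Genes under 10 reads in every library of a group were compared by their summed reads with exact 95% intervals, and against a floor of 3 reads over the group where the sum was 0. Reads carry no molecular identifiers, so such intervals cover counting error only. The test was run on simulated data before use.

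The genes and lists were chosen with earlier results of these data known. Genes named with values are the 10 lowest and 10 highest log2 fold changes (passing, groups not overlapping, at least 100 normalized counts on average in 1 of the groups), all calcium store and pump genes, genes with a known endothelial role, genes under 10 reads in every library of a group, and the 5 highest levels; of related genes, the 3 lowest and 3 highest. Others are named to account for their group. Of the genes under this rule, 2 of the 72 and 1 related gene are not reported here, and counts, medians and fits include them. As alternatives, the fit was repeated with DESeq2 1.42.0, with its size factors in edgeR, library totals without TMM, a filter of 10 counts in 4 libraries, a replicate block, other thresholds, adjustment over 30000 genes, leaving out each library, other memberships and TMM-scaled levels. Upper-quartile factors were added after seeing the data. Positions are those of the table on mm10, and 42 of the 72 equal GENCODE M21, whose exons gave the overlaps. Promoters are RefSeq's on GRCm38.p6. Python 3.11.15 and matplotlib 3.10.9 were used.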

Additional observations from a re-analysis of the deposited data

Results flagged for a closer look

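In 7 of 144 groups of 4 libraries (each of the 72 genes in EV and in *Hdac3* KO), 1 library stood apart from the other three by Dixon's criterion, where about 7.2 would be by chance. Among genes with many reads, EV replicate 2 had 2889 normalized counts of *Itpr3*, against 2593 to 2638 in the other EV libraries, and without it the log2 fold change was -0.15 in place of -0.19. The same library had 1468 of *Tmem63a*, against 1425 to 1432. *Hdac3* KO replicate 3 had 504 of *Clcn4-2*, against 451 to 458, and the log2 fold change without it was -0.41 in place of -0.38. EV replicate 3 had 90.9 of *Scn2a1*, against 66.5 to 68.9. Among genes with few reads, *Hdac3* KO replicate 1 had 20 of *Kcnab3*, against 27.2 to 27.4, EV replicate 4 had 0.887 of *Trpv2* (1 read) where the other EV libraries had none (log2 fold change 6.25 without it in place of 4.65, both dependent on the prior count), and *Hdac3* KO replicate 2 had 1.83 of *Piezo2* (2 reads), against 0.938 to 1.05.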

How the results depend on the processing

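Under the alternatives, 39 to 42 of the 72 genes were lower and 20 to 30 higher, except for 34 and 19 at a threshold of 0.001 and 37 and 21 without the genes taken for their names and the *Clic* genes. The counts over all listed genes moved too. Genes higher were fewest with library totals and most at a threshold of 0.05, and genes lower were fewest at 0.001. With library totals, and also at 0.001, a larger share of the 72 genes than of all listed genes was lower. A smaller share was higher, as in the main fit. These shares are not matched for level. Of 743 values of the 44 named genes under alternatives, 707 kept their direction and their side of the threshold, 27 no longer passed, 6 passed anew and 3 changed sign. The changes of sign were all with library totals without TMM (*Grina* -0.04, *Piezo1* -0.03, *Tmem63a* -0.01), a scaling that moved the median log2 fold change of all genes by -0.12 and of the 72 genes by -0.12, where upper-quartile factors moved both by -0.07. Differences smaller than these shifts depend on the scaling. With library totals, the related genes higher were 13 in place of 27, the mechanically activated genes higher 0 in place of 2 and the genes taken for their names higher 2 in place of 4, and the last 2 counts were also 0 and 2 with upper-quartile factors. Fewer of all listed genes were also higher with either scaling than with TMM, so a drop in genes higher was not particular to these groups. As a proportion, the drops given here were larger than the drop over all listed genes. For the last 2 groups they rest on only 2 and 4 genes higher with TMM. The low-count filter removed 5 of the 72 genes, which left 3 of 5 other potassium and 0 TRP genes higher and 0 mechanically activated genes lower, and *Piezo1*, which it kept, no longer passed (adjusted p = 0.0107), which left 1 mechanically activated gene higher. Adjustment over 30000 genes left 0 mechanically activated genes higher. At 0.001, 1 voltage-gated potassium, 3 other potassium, 1 calcium release and store entry and 0 mechanically activated genes were higher, and 1 TRP and 0 mechanically activated genes were lower. Leaving out each library gave 1 to 2 voltage-gated potassium genes higher, 1 to 2 mechanically activated genes higher and 0 to 1 lower. On TMM-scaled totals, the levels in EV and *Hdac3* KO were 212 and 103 for *Atp1b1*, 175 and 194 for *Clic1*, 159 and 167 for *Grina* and 118 and 183 for *Clic4*. With the replicate block, 42 genes were lower and 27 higher, as without it, and 4106 and 3866 of all listed genes in place of 4107 and 3895. The replicate numbers do not pair the libraries: same-numbered libraries had a mean correlation of deviations of -0.024 (-0.119 to 0.126), and 2 of 8 libraries correlated best with their own number. Leaving out 1 library ended the call of 9 of the genes described, from *Piezo2* at 0.03 FPKM in EV to *Piezo1* at 60.6 FPKM. Whether depth limits the 20 genes under 1 FPKM was not tested.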
